A study of Mus musculus with 8 samples.

Results

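Transcripts of 10 genes of the Toll-like receptor system were examined in mouse leukemia cells. They were taken by name, by a rule that used no measured value but was written with earlier results of these data known: the receptors Tlr1, Tlr2, Tlr4, Tlr6, Tlr7 and Tlr9, the co-receptor Cd14, the adaptor Myd88, the inhibitory kinase homolog Irak3 and the receptor chaperone Unc93b1. All 10 have a row in the deposited table of 12823 genes, and all 10 passed the filter on low counts that left 12494 genes to test. The cells are bone marrow progenitors transformed with a retrovirally introduced MLL-AF9 fusion gene, a driver of acute myeloid leukemia (AML), and they also express GFP. The new AML group holds 4 libraries of newly generated leukemia, which first arose in sublethally irradiated recipients. The aggressive AML group holds 4 libraries of cells that the labels describe as derived from that leukemia by 5 serial transplantations, which the study's methods place in non-irradiated recipients. In both groups GFP+ cells were sorted from the bone marrow of C57BL/6 mice, given as male in the study, and every library therefore carries MLL-AF9 and GFP. The libraries are labelled as biological replicates, but neither the labels nor the methods say whether each came from its own mouse, and 1 transformed leukemia passaged as 1 line is described. The p-values therefore measure the spread between these libraries only.

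The libraries held between 7805544 and 9697777 counts. A single count corresponded to 0.103 to 0.130 CPM, the count of a gene scaled to the library's total and composition. All 7 marker genes listed for MLL-AF9 leukemia cells were expressed, and 4 of them moved with the groups, where 18.4% of all tested genes were called. Kit and Meis1 rose (log2 fold change 0.65 and 0.45, adjusted p = 0.0014 and 0.0117), Hoxa10 and Itgam fell (-0.59 and -0.61, adjusted p = 7.85e-05 and 0.00122), and Hoxa9 was not called at 301 and 322 CPM. The part of these differences in the results was not tested. None of 5 T cell markers has a row. The Y-linked genes Ddx3y, Eif2s3y, Kdm5d and Uty were counted in all 4 new AML libraries and had 0 counts in all 4 aggressive AML libraries. Xist, listed with them, was low in both groups and lower in every aggressive AML library than in any new AML library. It had 24, 18, 25 and 46 counts in new AML replicates 1 to 4 and 2, 6, 2 and 4 in aggressive AML replicates 1 to 4. Several sources of any difference between the groups cannot be told apart. They are a different origin of the cells, loss of the Y chromosome, irradiation of the recipients and the serial transplantation itself. The labels record no sequencing batch or date, so a batch that follows the groups and the groups themselves cannot be told apart.

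Toll-like receptors (TLRs) are membrane proteins of innate immune cells that bind microbial products. TLR2 pairs with TLR1 or TLR6 to bind lipopeptides, and TLR4 binds lipopolysaccharide that CD14 delivers, all at the cell surface. TLR7, for single-stranded RNA, and TLR9, for DNA rich in unmethylated CpG, work in endosomes, and they reach them only with the chaperone UNC93B1. MyD88 is the adaptor that links nearly all TLRs, and the receptors for IL-1 and IL-18, to the IRAK kinases and NF-kB, while IRAK3, also called IRAK-M, restrains that signal in myeloid cells.

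The question was whether this system differed between newly generated and aggressive leukemia cells. The endosomal receptors among the 10 genes, Tlr7 and Tlr9, and their chaperone Unc93b1 fell in aggressive AML, by 3.18-fold, 2.08-fold and 1.44-fold. Tlr13, an endosomal receptor outside the 10, did not pass the test (-0.26 on the log2 scale, adjusted p = 0.421). The surface receptors Tlr1, Tlr2, Tlr4 and Tlr6, Cd14, Irak3 and Myd88, the adaptor that the endosomal receptors also use, did not pass the test. Whether surface and endosomal receptors changed by different amounts was not tested. Of the 10 genes, 3 were thus called lower and 0 higher (edgeR, adjusted p under 0.05), where 10.2% of all tested genes were called lower, 8.15% higher and 18.4% in either direction. The same 3 genes had values that did not overlap between groups, against 21.8% of all tested genes. Among the 10 genes, 8 log2 fold changes lay below 0 and the median was -0.16, beside a median of 0.00 and 49.9% below 0 over all tested genes.

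**Figure D1:**
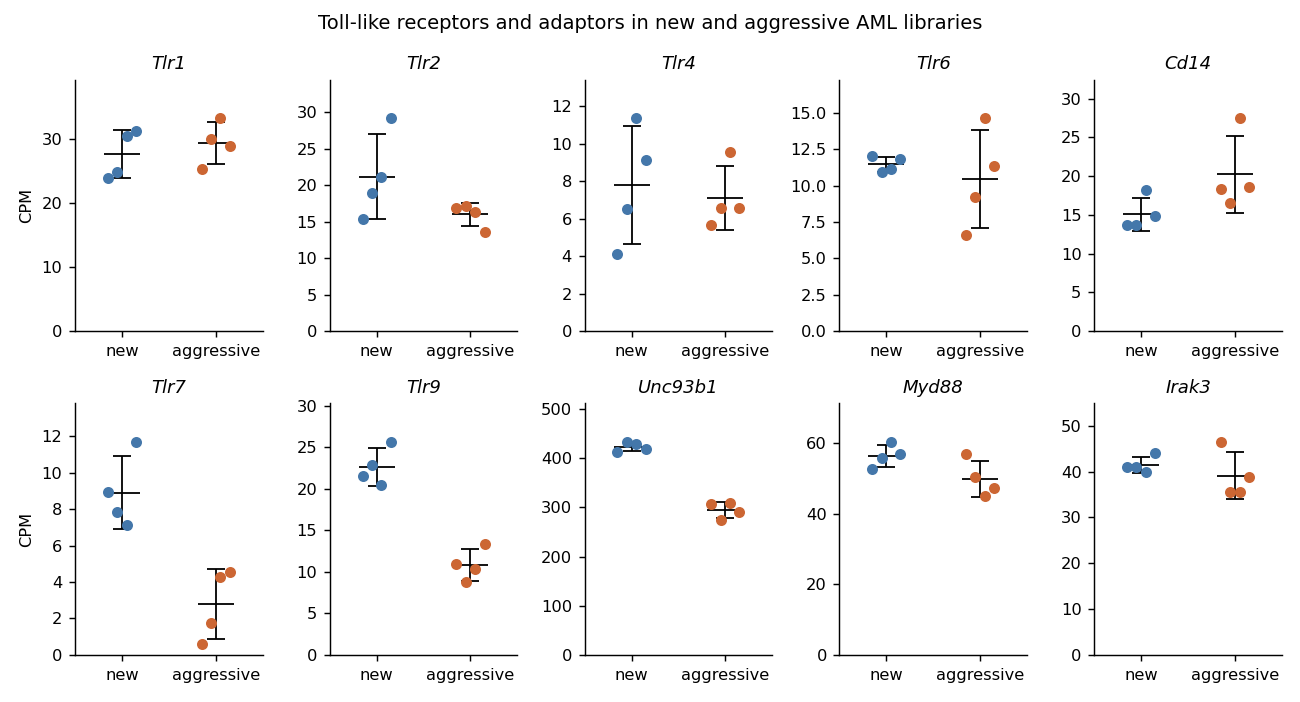
Expression of the 10 genes in CPM (vertical axes, one scale per gene, starting at 0) in the 4 new AML and 4 aggressive AML libraries, with each point a library and the bar and whiskers the mean and SD (n = 4). The groups are apart in Tlr7, Tlr9 and Unc93b1, and they overlap in the other 7 genes.

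Unc93b1, which escorts the endosomal receptors out of the endoplasmic reticulum, was the most abundant of the 10 and varied little within a group. Its CPM values in new AML replicates 1 to 4 were 412.6, 433.3, 428.8 and 419.3, and in aggressive AML replicates 1 to 4 they were 306.3, 274.3, 308.5 and 290.9. The lowest new AML library thus lay more than 100 CPM above the highest aggressive AML library. The means were 423.5 ± 9.34 CPM and 295.002 ± 15.9 CPM (SD, n = 4 each). On the log2 scale the difference was -0.52 (SE 0.067, 95% interval -0.66 to -0.38, adjusted p = 8.10e-05). The gene lies on chromosome 19 (chr19:3935186-3949340, plus strand, GRCm38), and its exons overlap those of no other gene in the annotation used.

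Tlr9, the receptor for CpG DNA, was expressed in new AML replicates 1 to 4 at 21.6, 22.8, 20.4 and 25.6 CPM. In aggressive AML replicates 1 to 4 the values were 11.0, 8.72, 10.4 and 13.3 CPM. Every aggressive AML library lay below every new AML library, and the SDs were similar, with means of 22.6 ± 2.25 CPM and 10.8 ± 1.90 CPM (SD, n = 4 each). The log2 fold change was -1.06 (SE 0.15, 95% interval -1.37 to -0.74, adjusted p = 0.000172). Tlr9 lies on chromosome 9 (chr9:106222598-106226883, plus strand, GRCm38). Of the 3 genes that fell, Tlr9 is the one with an entry in the RefSeq promoter table, and the 250 bases before its start site (chr9:106222348-106222597, plus strand, GRCm38.p6) are shown as the sequence next to the gene with the clearest receptor change. These bases overlap no annotated exon and hold no match, on either strand, to the 3 motifs searched: the core of the interferon-stimulated response element (GAAANNGAA), an NF-kB site (GGGANTTTC) and an ETS site of the kind PU.1 binds (GAGGAAGT). The sequence is therefore printed without capitals:
Tlr9 promoter: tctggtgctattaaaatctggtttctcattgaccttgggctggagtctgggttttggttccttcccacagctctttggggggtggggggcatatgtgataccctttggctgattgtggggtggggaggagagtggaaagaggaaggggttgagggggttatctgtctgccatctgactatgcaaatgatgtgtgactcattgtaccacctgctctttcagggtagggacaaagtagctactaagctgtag

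Across 32851 RefSeq promoter windows of that length, 7.13% hold the GAAANNGAA core, 0.941% GGGANTTTC and 2.44% GAGGAAGT. The 6 of 10 genes with an entry have 9 such windows. The core was found in 1 window each of Tlr6 (2 overlapping matches, TTCTCTTTC from position -115 and TTCACTTTC from position -109), Myd88 (GAAAGCGAA from position -40) and Irak3 (TTCATTTTC from position -102), and GAGGAAGT in 1 window of Tlr1 (from position -23). The matched windows of Tlr1 and Myd88 overlap exons of the same gene, that of Irak3 an exon of Tmbim4, and that of Tlr6 none. Whether matches were more frequent than over all windows was not tested. Positions count back from the start site, and none of these 4 genes was called between the groups.

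Tlr7, the receptor for single-stranded RNA, had few counts in aggressive AML. New AML replicates 1 to 4 had 87, 66, 64 and 105 counts, or 8.93, 7.85, 7.14 and 11.7 CPM. Aggressive AML replicates 1 to 4 had 5, 15, 33 and 40 counts, or 0.602, 1.77, 4.28 and 4.55 CPM. The groups did not overlap, but aggressive AML was itself uneven: the exact Poisson 95% interval, which covers counting error only, ran from 1.62 to 11.7 for the 5 counts of replicate 1 and from 28.6 to 54.5 for the 40 counts of replicate 4. The mean fell from 8.91 ± 2.01 CPM to 2.80 ± 1.93 CPM (SD, n = 4 each). The log2 fold change was -1.67, with a wide 95% interval of -2.49 to -0.85 (SE 0.38, adjusted p = 0.00730).

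Tlr7 lies on the X chromosome (chrX:167304929-167330558, minus strand, GRCm38), next to its closest paralog Tlr8, which also encodes a receptor for RNA degradation products. Tlr8 had 9, 24, 17 and 36 counts in new AML replicates 1 to 4 and 0, 5, 3 and 5 counts in aggressive AML replicates 1 to 4, and so fell below the filter. Its means were 2.42 ± 1.32 CPM and 0.387 ± 0.273 CPM (SD, n = 4 each), with every aggressive AML library below every new AML library. In the same test without the filter, the log2 fold change of Tlr8 was -2.58 (adjusted p = 0.00724). Over the X chromosome, 345 genes were tested, of which 24 rose and 30 fell (15.7% called), with a median log2 fold change of 0.00.

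The rows of the table nearest to each of the 3 genes that fell, 3 on each side, were listed after their values had been seen. Of these 18 neighbors, 17 were tested and 1, Nudt8 near Unc93b1, was called, and it rose. Prps2, 15746 bases from Tlr7, stood at 75.4 CPM in new AML and 70.9 CPM in aggressive AML (log2 fold change -0.09, adjusted p = 0.515). Alas1, 6579 bases from Tlr9, stood at 252.8 and 245.5 CPM, and Aldh3b1, 4260 bases from Unc93b1, at 63.4 and 59.3 CPM, neither of which passed the test (adjusted p = 0.869 and 0.636). The tested neighbors held no gene called lower, where 10.2% of all tested genes were called lower and 8.15% higher. The neighbor that was not tested is Tlr8, described above, which was lower in aggressive AML. Whether these regions changed as a whole was not tested.

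**Figure D2:**
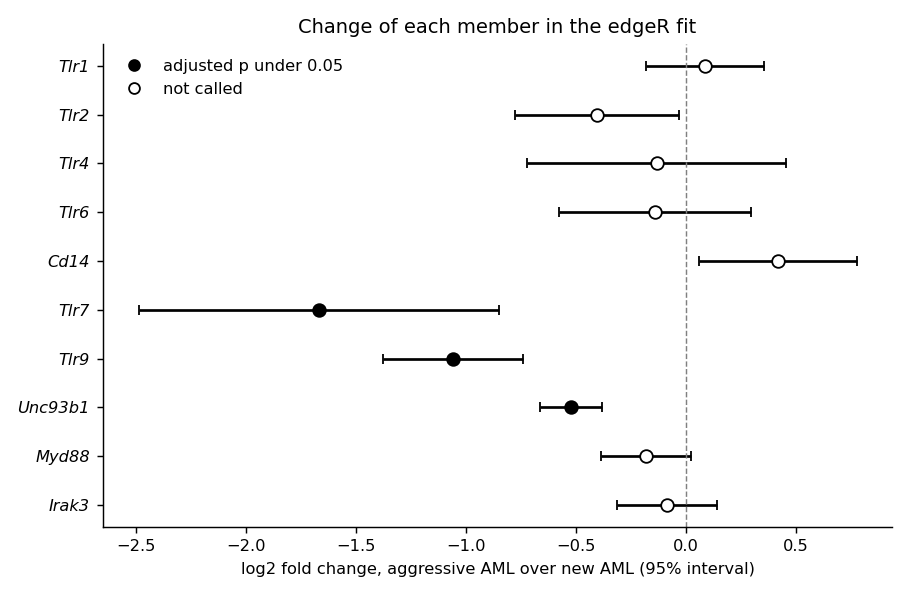
Log2 fold change of aggressive over new AML for the 10 genes (horizontal axis), with points as edgeR estimates and lines as 95% intervals from 4 libraries per group. The intervals of Tlr7, Tlr9 and Unc93b1 lie below 0 and pass the adjusted threshold, whereas those of Tlr2 and Cd14 exclude 0 without passing it.

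The surface receptors among the 10 genes showed no called change, and their intervals set how much change could have been missed. Tlr5, a surface receptor outside the 10 and below the filter, was lower in every aggressive AML library, as described with the remaining TLR genes. Tlr1, the lipopeptide co-receptor, stood at 23.8, 24.9, 30.5 and 31.2 CPM in new AML and 25.3, 29.9, 33.2 and 28.9 CPM in aggressive AML (replicates 1 to 4). The groups overlapped almost fully, and the log2 fold change was 0.09 (SE 0.13, 95% interval -0.18 to 0.35, adjusted p = 0.668). Tlr6, its neighbor on chromosome 5 and the alternative partner of TLR2, stood at 12.0, 10.9, 11.2 and 11.8 CPM in new AML and 6.63, 9.19, 14.6 and 11.4 CPM in aggressive AML. The aggressive AML libraries spread to both sides of the new AML range, with a log2 fold change of -0.14 (SE 0.20, 95% interval -0.57 to 0.30, adjusted p = 0.684). Tlr1 and Tlr6 are recent duplicates: 15.3% of the 50-base words in the exons of Tlr1 also occur in Tlr6, so reads in those stretches may be split between them.

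Tlr2, the receptor shared by both lipopeptide pairs, was uneven within new AML. Its values in new AML replicates 1 to 4 were 15.4, 18.9, 21.2 and 29.2 CPM, and in aggressive AML they were 16.9, 17.2, 16.3 and 13.7 CPM. One new AML library lay inside the aggressive AML range and 3 lay above it. The log2 fold change was -0.40 (SE 0.17, 95% interval -0.77 to -0.03), which did not pass the adjusted threshold (adjusted p = 0.123). The call depended on single libraries, since the adjusted p was 0.0475 without new AML replicate 1 and 0.416 without new AML replicate 4.

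Tlr4 and Cd14 both serve the response to lipopolysaccharide. Tlr4 was low, at 4.11, 6.54, 11.4 and 9.14 CPM in new AML replicates 1 to 4 and 5.66, 6.60, 9.59 and 6.60 CPM in aggressive AML replicates 1 to 4. The aggressive AML libraries lay inside the range of new AML, and the interval was too wide to settle a direction (log2 fold change -0.13, SE 0.28, 95% interval -0.72 to 0.46, adjusted p = 0.777). Without new AML replicate 3 the sign turned, to 0.11. Cd14, which has no signaling tail of its own and hands lipopolysaccharide to TLR4, was the one gene of the 10 with an estimate well above 0. Its values were 13.7, 13.7, 18.2 and 14.8 CPM in new AML and 18.3, 16.5, 27.5 and 18.6 CPM in aggressive AML. Only aggressive AML replicate 2 lay below the highest new AML library, but the log2 fold change of 0.42 (SE 0.17, 95% interval 0.06 to 0.78) did not pass the adjusted threshold (adjusted p = 0.0968).

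The shared adaptor and its inhibitor differed little. Myd88 stood at 52.9, 55.9, 60.5 and 57.0 CPM in new AML replicates 1 to 4 and 56.9, 50.4, 45.0 and 47.2 CPM in aggressive AML replicates 1 to 4. The groups overlapped through aggressive AML replicate 1, and the log2 fold change was -0.18 (SE 0.096, 95% interval -0.39 to 0.02, adjusted p = 0.208). A fall of more than 0.39 on the log2 scale thus lay outside the interval. Exons of Myd88 overlap those of Acaa1a on the opposite strand, and 7.26% of its 50-base words are shared, while Acaa1a itself stood at 74.3 CPM in new AML and 62.2 CPM in aggressive AML (adjusted p = 0.0704). Irak3 stood at 41.1, 40.9, 39.9 and 44.0 CPM in new AML and 46.5, 35.5, 35.6 and 38.8 CPM in aggressive AML. New AML lay inside the range of aggressive AML, with a log2 fold change of -0.08 (SE 0.11, 95% interval -0.31 to 0.14, adjusted p = 0.621).

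Divided by exon length, the levels of the 10 genes spanned a wide range in both groups. In new AML the order in CPM per kb was Unc93b1 (139.7 ± 3.08, SD, n = 4), Myd88 (22.0 ± 1.22), Irak3 (11.3 ± 0.482), Cd14 (8.71 ± 1.23), Tlr1 (8.24 ± 1.13), Tlr2 (7.03 ± 1.94), Tlr9 (6.50 ± 0.646), Tlr6 (3.08 ± 0.138), Tlr7 (2.18 ± 0.492) and Tlr4 (1.40 ± 0.568). The ranges of neighbors in that order overlapped from Cd14 through Tlr9 and again between Tlr7 and Tlr4. In aggressive AML the order was Unc93b1 (97.3 ± 5.23), Myd88 (19.4 ± 2.01), Cd14 (11.7 ± 2.85), Irak3 (10.6 ± 1.41), Tlr1 (8.77 ± 0.970), Tlr2 (5.31 ± 0.535), Tlr9 (3.12 ± 0.547), Tlr6 (2.81 ± 0.912), Tlr4 (1.28 ± 0.308) and Tlr7 (0.686 ± 0.472). There the ranges overlapped from Cd14 through Tlr1, between Tlr9 and Tlr6 and between Tlr4 and Tlr7. Tlr7 thus had the lowest mean of the 10 in aggressive AML. Among the tested genes with a length, which leave out the rows below the filter, Tlr7 moved from percentile 20.3 to percentile 7.92. Tlr9 moved from percentile 42.6 to percentile 26.8, while Unc93b1 stayed among the most abundant genes, at percentile 97.7 and then 96.1.

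The makeup of the receptor pool was described by the share of each receptor in the summed CPM per kb of the 6 TLRs. Tlr7 and Tlr9 together held 34.1%, 32.3%, 26.5% and 30.1% of that sum in new AML replicates 1 to 4. In aggressive AML replicates 1 to 4 they held 17.1%, 13.8%, 16.1% and 22.1%. The shares of this pair did not overlap between the groups, with means of 30.7% ± 3.30 and 17.3% ± 3.49 (SD, n = 4 each). Tlr1 held 29.0% ± 1.83 in new AML against 39.9% ± 1.51 in aggressive AML, and Tlr2 held 24.4% ± 3.14 and 24.5% ± 4.18. These shares restate the changes in Tlr7 and Tlr9 within a fixed sum and were not tested again. The picture differed over all 9 TLR genes with a row, a sum formed after the values were seen, because Tlr13, described with the other receptors, held 26.1% ± 3.41 of it in new AML and 27.7% ± 6.16 in aggressive AML. The 4 endosomal receptors Tlr7, Tlr8, Tlr9 and Tlr13 together held 51.7%, 53.1%, 43.1% and 51.0% in new AML replicates 1 to 4 and 34.8%, 39.1%, 37.1% and 50.3% in aggressive AML replicates 1 to 4. With Tlr13 included, the endosomal shares of the groups thus overlapped, through new AML replicate 3 and aggressive AML replicate 4.

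**Figure D3:**
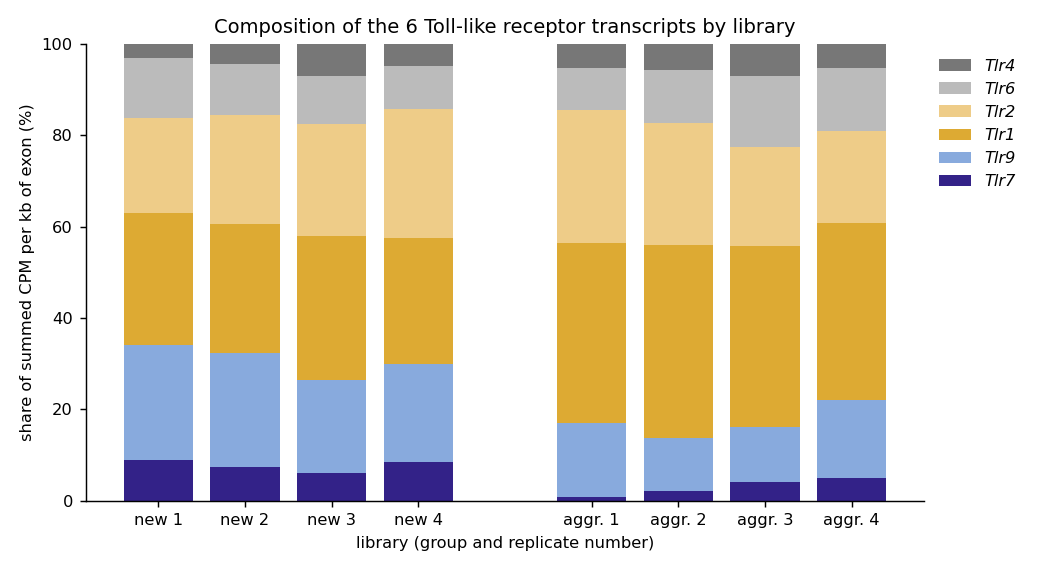
Share of each of the 6 TLRs in their summed CPM per kb of exon (vertical axis, percent) in each of the 8 libraries, stacked to 100%. The Tlr7 and Tlr9 segments together make up 26.5% to 34.1% in new AML and 13.8% to 22.1% in aggressive AML.

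The other genes of the pathway were taken from lists written from general knowledge, likewise with earlier results known. Of 82 listed genes, 68 have a row and 64 were tested, of which 8 rose and 11 fell in aggressive AML (29.7% called, against 18.4% of all tested genes), with a median log2 fold change of -0.13. Beside the counts of each list below, 10.2% of all tested genes were called lower and 8.15% higher. All 7 tested carriers, co-receptors and chaperones had estimates below 0 (median -0.26), and 3 of them fell. Cnpy3, a chaperone that TLR9 and several surface TLRs need to fold, fell from 184.6 ± 7.66 to 146.0 ± 12.7 CPM (SD, n = 4 each, log2 fold change -0.34, adjusted p = 0.00738). Its partner chaperone Hsp90b1, also called gp96, fell from a mean of 1400 to 1170 CPM (log2 fold change -0.26, adjusted p = 0.0286), a call that was lost in 5 of 17 alternative analyses. Cd180, a TLR4 homolog of B and myeloid cells, fell from 90.1 ± 4.83 to 64.2 ± 4.17 CPM (adjusted p = 0.000797). Its partner Ly86, the most abundant gene of the list that was not called, stood at 268.8 and 229.0 CPM (adjusted p = 0.0530).

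In the list of endosomal processing and trafficking, 3 of 13 tested genes fell and 1 rose, with a median of -0.22. Pld4, an endosomal exonuclease that degrades the single-stranded nucleic acids that TLR7 and TLR9 sense, fell most, from 282.1 ± 30.0 to 107.2 ± 10.2 CPM (SD, n = 4 each, log2 fold change -1.40, SE 0.093, adjusted p = 1.69e-07). Ctss, a protease of the endosome, fell from 139.9 ± 16.9 to 65.2 ± 10.8 CPM (log2 fold change -1.10, adjusted p = 1.41e-05). In both genes the groups did not overlap. Slc15a3, a transporter of the endolysosomal membrane, fell from 7.68 ± 2.66 to 3.54 ± 0.548 CPM (adjusted p = 0.00945). Of its 50-base words, 31.0% are shared with other genes, Tmem132a the most, so its level is uncertain. Tmem132a itself stood at 1.23 CPM in new AML and 0.213 CPM in aggressive AML. The protease gene Ctsl, in which 28.1% of words are shared with other genes, rose from 23.1 ± 3.63 to 37.2 ± 9.08 CPM (adjusted p = 0.00856). The most abundant gene of the list that was not called, Ctsb, stood at 483.8 and 415.4 CPM (adjusted p = 0.109).

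Among the other adaptors, Ticam2, the bridge between TLR4 and the TRIF adaptor, was the 1 of 4 tested genes that was called (median of the list -0.32). It fell from 20.7 ± 2.07 to 8.29 ± 1.54 CPM (SD, n = 4 each, log2 fold change -1.32, adjusted p = 5.05e-05). Ticam2 shares 19.0% of its 50-base words with Tmed7, which stood at 170.2 and 174.4 CPM (adjusted p = 0.770). Pik3ap1 was the most abundant adaptor not called, at 120.8 and 124.1 CPM.

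Of 13 tested kinases and ubiquitin ligases, 1 fell and 1 rose, where 18.4% of all tested genes were called in either direction. The median of the list was -0.01. Irak4, the kinase that MyD88 recruits first, fell from 49.3 ± 3.56 to 34.6 ± 5.26 CPM (SD, n = 4 each, log2 fold change -0.51, adjusted p = 0.00727). Traf6, the ubiquitin ligase further along the same route, stood at 66.3 ± 5.83 and 84.2 ± 14.9 CPM and passed the threshold narrowly (adjusted p = 0.0483, called in 9 of 17 alternatives). Tab2, not called, was the most abundant of the rest, at 237.6 and 209.5 CPM. Among the 10 negative regulators (median -0.15), 2 fell. These were Il1rl1, the IL-33 receptor, from a mean of 1.81 to 0.631 CPM (adjusted p = 0.0200, called in 13 of 16 alternatives) and the phosphatase Inpp5d from 343.5 to 277.8 CPM (adjusted p = 0.0193, called in 12 of 17 alternatives), while Cyld was not called at 95.7 and 84.4 CPM. Il1rl1 reached 1 CPM in new AML libraries only and so passed the filter through that group alone. Its adjusted p is therefore given as a description only.

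Medians above 0 were found in 2 lists, and differences between lists were not tested. Of 3 tested IL-1 and IL-18 receptor genes, 2 rose (median 0.52): the decoy receptor Il1r2 from a mean of 4.67 to 8.45 CPM (adjusted p = 0.0179, called in 16 of 17 alternatives) and the IL-18 receptor chain Il18rap from 31.1 to 44.6 CPM (adjusted p = 0.0104). Il1rap, their tested companion, stood at 22.4 and 27.4 CPM (adjusted p = 0.129). Of 13 tested inflammatory target genes, 4 rose and 1 fell (median 0.18). The neutrophil chemokine Cxcl2 rose from a mean of 1.20 to 3.57 CPM (log2 fold change 1.57, adjusted p = 0.0122, called in 15 of 16 alternatives) and Clec4e, a receptor for mycobacterial glycolipid, from 76.5 to 100.8 CPM (adjusted p = 0.0057). Nfkbiz, a cofactor of NF-kB, and Ier3 stood at 15.9 and 25.7 CPM and at 12.4 and 19.3 CPM, and both were near the threshold (adjusted p = 0.0495 and 0.0463, called in 10 and 12 of 17 alternatives). Il1rn, the IL-1 receptor antagonist, fell from a mean of 3.03 to 0.886 CPM (log2 fold change -1.74, adjusted p = 0.0099). The most abundant target, Zfp36, was not called at 136.1 and 140.1 CPM.

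Of the 6 remaining TLR genes, 3 have a row and 1 was tested. Tlr13, the endosomal receptor for bacterial ribosomal RNA, which also depends on UNC93B1, stood at 44.9 ± 10.9 CPM in new AML and 37.4 ± 12.8 CPM in aggressive AML (SD, n = 4 each, log2 fold change -0.26, adjusted p = 0.421). Its libraries overlapped between the groups, and whether its change differed from those of Tlr7 and Tlr9 was not tested. Tlr5, the flagellin receptor, had 10, 11, 4 and 10 counts in new AML and 3, 3, 1 and 2 in aggressive AML, below the filter. By CPM, every aggressive AML library lay below every new AML library. In the edgeR test without the filter, the log2 fold change of Tlr5 was -1.79 (adjusted p = 0.0371).

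**Figure D4:**
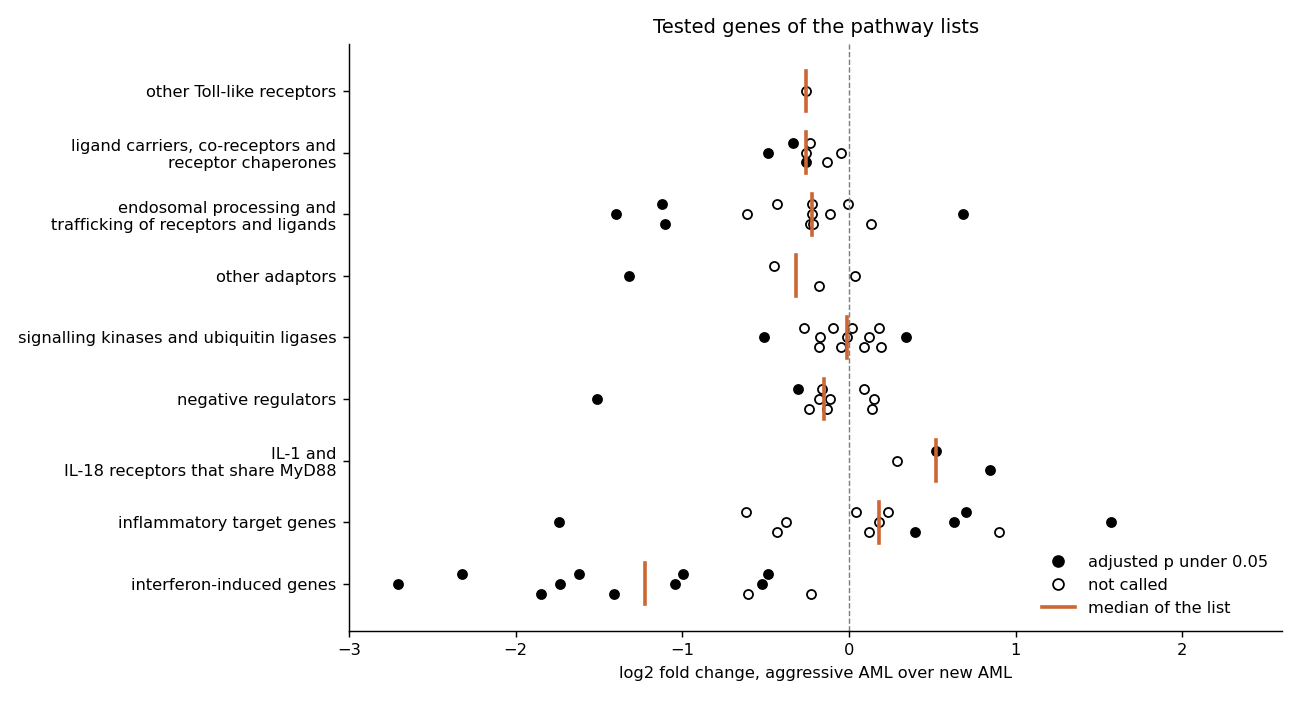
Log2 fold change of aggressive over new AML (horizontal axis) for each tested gene of the pathway lists (one list per line), with filled points marking genes called at an adjusted p under 0.05 and the bar marking the list's median. The medians lie at -0.26 for carriers and chaperones and -0.22 for endosomal processing, and at 0.18 for inflammatory targets and 0.52 for the IL-1 and IL-18 receptors.

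Other transcripts moved with the groups alongside Tlr7, Tlr9 and Unc93b1. Interferon-induced genes were listed as a set already known to move with the groups from earlier results of these data. Of the 12 tested, 10 fell and 0 rose (median -1.23). Their summed level was 382 to 671 CPM in new AML, highest in replicate 3, and 240 to 280 CPM in aggressive AML. Irf7, the transcription factor through which TLR7 and TLR9 induce interferon, is on this list and fell from 22.0, 17.1, 41.8 and 24.3 CPM to 6.87, 7.66, 6.74 and 7.85 CPM (log2 fold change -1.85, adjusted p = 7.08e-05). Without new AML replicate 3, Tlr7, Tlr9 and Unc93b1 were still called, with log2 fold changes of -1.76, -1.10 and -0.52 (adjusted p = 0.00922, 0.000375 and 0.000246). Leaving out that library does not remove the difference in interferon-induced genes. Their summed level was 419, 382 and 446 CPM in new AML replicates 1, 2 and 4. Of 10 neutrophil markers, 8 fell (summed level 305 to 457 CPM in new AML, 148 to 198 CPM in aggressive AML). Beside this count and the marker counts below, 10.2% of all tested genes were called lower.

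Of 8 dendritic cell markers, 5 have a row and 4 fell (Siglech, Itgax, Ccr7 and Bst2, of which Bst2 is also on the interferon list), while the fifth, Flt3, held most of the summed level (641 to 805 CPM in new AML, 691 to 869 CPM in aggressive AML). Zbtb46, Xcr1 and Clec9a have no row. Siglech, a marker of plasmacytoid dendritic cells, which are rich in TLR7 and TLR9, stood at 6.26, 3.92, 3.79 and 8.36 CPM in new AML replicates 1 to 4 and at 0, 0.236, 0.648 and 0.911 CPM in aggressive AML replicates 1 to 4 (adjusted p = 0.000184). Its counts were 61, 33, 34 and 75 in new AML replicates 1 to 4 and 0, 2, 5 and 8 in aggressive AML replicates 1 to 4. Siglech reached 1 CPM in new AML libraries only and so passed the filter through that group alone. Its adjusted p is therefore given as a description only. By CPM, the 4 libraries of each group fell in the same order by Siglech as by Tlr7. By Siglech counts, new AML replicates 2 and 3 stood the other way round, and the order in aggressive AML rests on few counts. The order by CPM was noticed after the values were seen and is given as a description over libraries that share their depth. Tlr9 and Unc93b1 did not follow that order in either group, and neither did the dendritic cell markers Itgax, Ccr7 and Bst2. Flt3 followed it in both groups, although its mean was 583 CPM in new AML and 721 CPM in aggressive AML (not called, adjusted p = 0.0611). What the shared order reflects was not tested.

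Of 10 markers of monocytes and macrophages, 8 have a row and 2 of 7 tested genes fell. Csf1r, the receptor that defines the lineage, fell from 166.2 to 51.2 CPM, whereas the summed level, set mostly by Ly6c2, was 1804 to 2629 CPM in new AML and 2231 to 2439 CPM in aggressive AML. Of 6 B cell markers, 3 have a row, with a summed level of 36.6 to 42.2 CPM in new AML and 30.6 to 33.7 CPM in aggressive AML. Of 6 tested erythroid markers 1 fell, with a summed level of 25.7 to 95.3 CPM and 9.90 to 51.3 CPM. The part of these cell types and of interferon-induced transcription in the results on Tlr7, Tlr9 and Unc93b1 was not tested, and fewer cells of a type and less RNA per cell cannot be told apart in bulk samples.

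**Figure D5:**
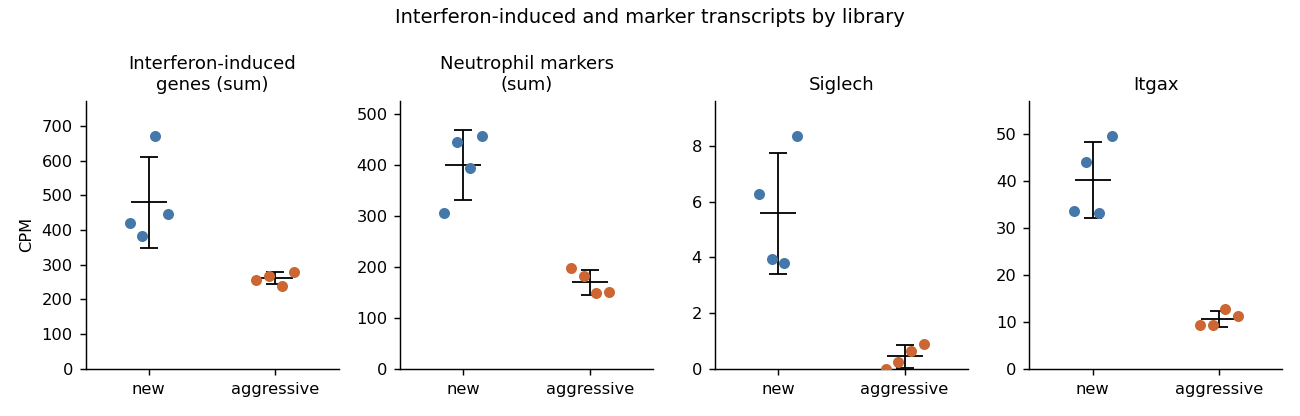
Expression in CPM (vertical axes, starting at 0) of transcripts that moved with the groups, with each point a library and the bar and whiskers the mean and SD (n = 4). The summed interferon-induced genes and neutrophil markers, Siglech and Itgax lie lower in all 4 aggressive AML libraries than in the new AML libraries.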

How the data were processed

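The authors extracted RNA from sorted GFP+ cells, sequenced polyadenylated RNA from both ends, aligned reads to mm10 with HISAT2, obtained counts per gene from Rsubread and applied a minimum of 1 CPM. The annotation and strand setting were not given in the sources used here. Although the deposited table bears CPM in its name, its values are whole numbers whose totals differ by library, and they were used as counts. Groups came from the sample titles.

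Genes that reached 1 CPM in 4 or more of 8 libraries entered the quasi-likelihood test of edgeR 4.0.16 (R 4.3.3), with TMM scaling, the group as the only term, two-sided p-values and Benjamini-Hochberg adjustment over all 12494 tested genes. CPM values use the TMM-scaled totals (factors 0.986 to 1.01). Intervals are from the fitted standard errors. The common biological coefficient of variation was 0.118, and any 2 replicates differed beyond sampling noise. Scripts were tested on simulated data. Alternatives used DESeq2 1.42.0, limma 3.58.1, other filters and scalings, and left out each library.

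The 10 genes and the lists were chosen with earlier results of these data known. In each list, every called gene and the most abundant uncalled gene are named. Genes named from the marker lists or as neighbors were chosen after their values were seen. Names were matched exactly. Gene positions, exon lengths and shared words are from GENCODE M21 (GRCm38, the build of mm10), which covered 92.3% of rows, and promoters from RefSeq GRCm38.p6.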

Additional observations from a re-analysis of the deposited data

Results flagged for a closer look

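In a group of 4 libraries, a value was looked at again where its gap to the nearest other library took up most of the group's whole range, by Dixon's test at the 95% level. Of 58 groups examined, 2 met this rule, and chance alone flags about 1 group in 20. Neither concerns a receptor. Both lie in new AML replicate 3, the library with the highest summed level of interferon-induced genes. Inpp5d stood at 302.2 CPM there, against 353.0 to 360.4 CPM in the other new AML libraries, and Cxcl2 at 2.01 CPM, against 0.821 to 1.00 CPM.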

How the results depend on the processing

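Tlr9 and Unc93b1 were called lower in all 17 alternatives, and Tlr7 in the 16 that tested it (adjusted p = 0.000341 to 0.0296, log2 fold change -2.18 to -1.33). At a filter of 1 CPM in all 8 libraries Tlr7 was not tested, because of aggressive AML replicate 1. The number of the 10 genes called lower was 2 to 3 under other tests, filters and scalings and 3 to 4 when 1 library was left out, the fourth being Tlr2 without new AML replicate 1, and 0 were called higher throughout. With 1 library left out, the log2 fold change of Tlr6 ran from -0.34 to 0.028 (without aggressive AML replicate 1) and that of Tlr4 from -0.35 to 0.11 (without new AML replicate 3), so that both changed sign. In the pathway lists, limma voom with sample quality weights called 18 genes lower against 11. Leaving out 1 library gave 4 to 8 called higher (4 without new AML replicate 2, and 5 without aggressive AML replicate 1 or 2 or new AML replicate 4) and 9 to 13 lower. Over all genes the corresponding ranges were 650 to 1077 higher (lowest without new AML replicate 2) and 884 to 1304 lower, and the other settings gave 901 to 1428 and 1121 to 1694. Same-numbered libraries of the groups did not all deviate together (correlations 0.122, -0.0237, -0.0590 and 0.179), and not every library correlated best with its own number. With the number as a replicate block, 3 of the 10 genes were called lower and 0 higher, 8 pathway genes higher and 14 lower, and 1003 genes higher and 1364 lower over the table. At 3 counts, worth 0.308 to 0.389 CPM, depth limits Tlr8 and Tlr5 in aggressive AML. The cause of these differences between settings was not tested.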
